A study of Homo sapiens with 6 samples.

Results

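Ishikawa cells, an estrogen-responsive line from an endometrial adenocarcinoma, had been made into ETV4 knockout clones, and the genes by which clone 1 and clone 2 differ from each other are described here. ETV4 encodes an ETS-family transcription factor of the PEA3 group. The study profiled gene expression by poly(A) RNA-seq in 6 libraries, of which the 4 knockout libraries enter this comparison. They are ETV4 knockout clone 1 after the vehicle (0.1% DMSO), clone 1 after 10 nM 17β-estradiol (E2), clone 2 after DMSO and clone 2 after E2, with 1 library each. The unedited parental line, also with 1 DMSO and 1 E2 library, serves as a point of reference. All 6 cultures had been held in hormone-depleted medium before treatment. The exposure lasted 8 h by the protocol and 1 h by the sample characteristics, and this conflict could not be resolved. Both clones carry the same targeted gene, so a gene that separates them does so without a difference in intended genotype. Each clone is a single line, and nothing in the labels says how many passages or which guide separated it from the other.

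A clone grown from a single cell passes on the expression state of that cell as well as its edit. Promoter methylation and other heritable chromatin states can keep a gene silent or active through many divisions, and cancer lines also carry copy number differences between cells. Gene families with a choice among many like promoters, of which the clustered protocadherins are the textbook case, are known to differ from cell to cell.

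The 4 knockout libraries held between 28037392 and 35532428 counts, and the clone 1 DMSO library was the deepest. A total of 14881 of the 26364 genes had enough counts to be tested. Clone 2 was set against clone 1 with treatment in the model, and every difference below is clone 2 minus clone 1 on the log2 scale unless another is named. Levels are in CPM, a count relative to the TMM-adjusted size of its library. Each clone had 1 library per treatment, so the DMSO and E2 libraries act as its repeats. They are separate treatments of 1 clone, not separate clones. The model had 1 residual degree of freedom, and edgeR took the spread of each gene from all genes together. Adjusted p-values therefore rest on a shared spread, and the count of genes fell when the 2 parental libraries were added to the fit, as given below. Each SE is the size of the difference divided by the square root of its F statistic in the fit of 4 libraries. It thus rests on the same shared spread and is not a separate estimate for the gene. For the marker sums that follow, and only there, CPM is relative to the unadjusted total of the library. Epithelial markers such as keratins and EPCAM summed to between 2240 and 3188 CPM in the knockout libraries. The 10 leukocyte markers summed to between 2.50 and 4.54 CPM, with 5 of them (CD3E, CD3D, MS4A1, TYROBP and CD53) at 0. The 10 endothelial markers summed to between 9.12 and 11.4 CPM, with EMCN at 0. The 10 stromal markers summed to between 53.5 and 81.2 CPM, highest in clone 2 in DMSO, with FAP at 0.

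The targeted gene was low in both clones. With DMSO and E2 in that order, ETV4 had 3.40 and 2.95 CPM in clone 1 and 2.42 and 2.77 CPM in clone 2, against 19.7 and 28.5 CPM in the parental line. The clones differed by -0.29 (SE 0.23), with an adjusted p of 0.42 by the edgeR quasi-likelihood test. Of the nearest genes on either side of ETV4 in the RefSeq gene order, 12 were tested. By edgeR on 4 libraries, 3 of them (25%, beside 18.3% of all tested genes) had an adjusted p below 0.05. Of these, 1 was higher and 2 were lower in clone 2. With all 6 libraries edgeR called 0 of the 12 and DESeq2 2, both lower. None of those 12 differed by at least 2-fold in both treatments.

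Between the clones, the adjusted p was below 0.05 for 2723 of 14881 genes (18.3%), with 1520 higher and 1203 lower in clone 2. That split depended on the fit: it was 511 and 513 by DESeq2, 37 and 97 with all 6 libraries and 1419 and 1644 with the trends with GC and length removed. A narrower set, required in addition to be at least 2-fold apart in the same direction in DMSO and again in E2, held 381 genes (2.56% of those tested). In that set 139 genes (0.934%) were higher and 242 (1.63%) were lower in clone 2. These 381 are called genes that differ in both treatments from here on. Their median difference was 1.77 in size, and 96 of them were at least 4-fold apart in each treatment. Of these genes 195 averaged under 2 CPM over the knockout libraries, as did 2496 of all tested genes. With all 6 libraries in 1 fit, which let edgeR estimate the spread of each gene with far less borrowing, 134 of 15166 genes (0.884%) passed an adjusted p of 0.05. Of those, 131 (0.864%) differed in both treatments and all 131 were among the 381. That fit takes the E2 effect as equal in every line, so a different E2 response of the parental line also counts as spread. A call lost there can therefore reflect the parental line as well as the clones. Without the treatment term in the model, 104 genes (0.699%) passed and 96 (0.645%) met both criteria. DESeq2 on the 4 libraries called 1024 (6.88%), of which 231 (1.55%) met both. Members nearest the 2-fold limit were CCDC114, ADAM33 and TCEAL2 just inside it, with a smaller log2 ratio of 1.00 in size, and DSC3, UCKL1-AS1 and LINC01355 just outside, at 0.997, 0.993 and 0.992.

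The treatments give separate pairs of libraries, and each pair can be read in the genes picked by the other. In DMSO, 804 genes (5.4%) were at least 2-fold apart, 416 higher and 388 lower in clone 2. In E2, 808 genes (5.43%) were, 356 higher and 452 lower. The lists shared 392 genes in the same direction, which is 48.8% of the DMSO list and 48.5% of the E2 list, and 21 genes were 2-fold apart in opposite directions. Genes picked in DMSO had a median size of 1.36 there and of 0.957 in the same direction in E2, where 86.1% kept their sign. Genes picked in E2 had a median size of 1.39 there and of 0.971 in DMSO, where 88.2% kept theirs. Across the 14881 genes the ratios of the 2 pairs had a Pearson correlation of 0.681. That value is a description, since genes share libraries and are not replicates.

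**Figure D1:**
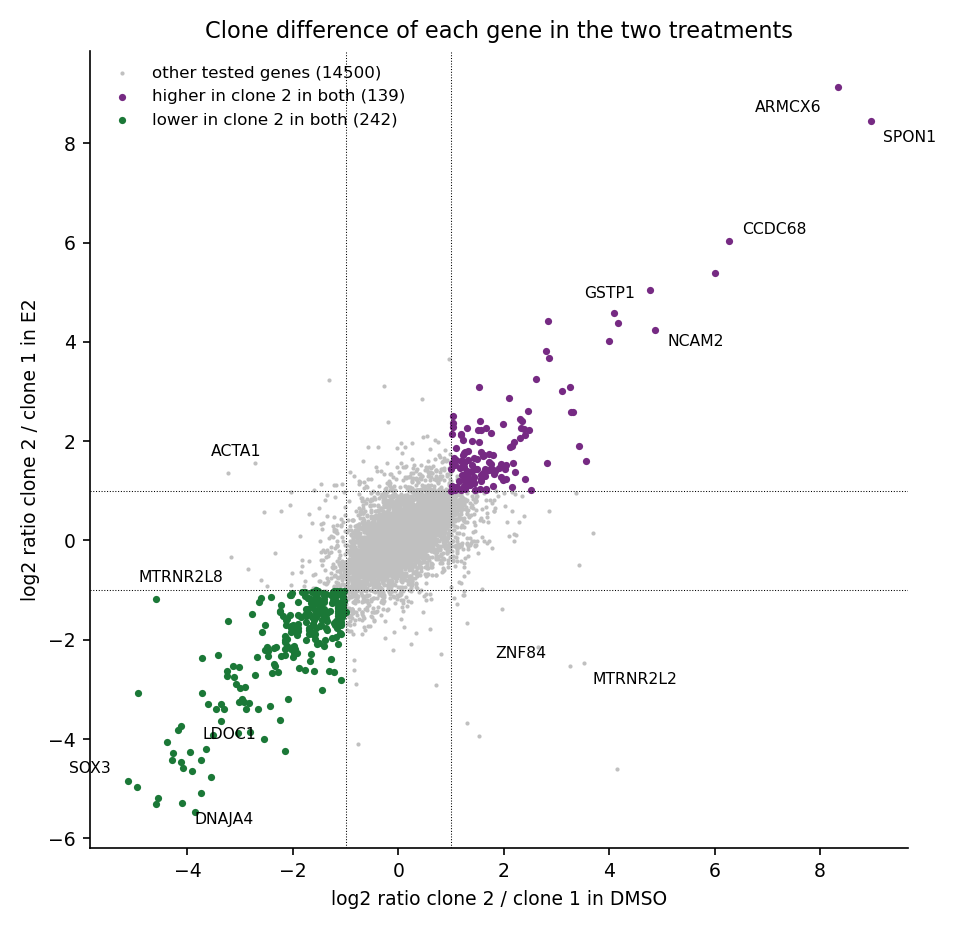
Log2 ratio of clone 2 to clone 1 for each of 14881 tested genes in DMSO (horizontal axis) and in E2 (vertical axis), 1 library a point in each ratio, with dotted lines at a 2-fold difference. The 139 purple genes and 242 green genes lie far along the diagonal from ARMCX6 and SPON1 to SOX3, while ZNF84, MTRNR2L2 and ACTA1 lie off it.

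Genes higher in clone 2 included some of cell adhesion and the matrix, while others of these kinds were lower, as given below. In both treatments 1 collagen was higher and 2 were lower. Of the classical and atypical cadherins 0 were higher and 3 lower. SPON1, which encodes the secreted matrix protein F-spondin, had 1.48 and 1.95 CPM in clone 1 (DMSO and E2), 766 and 704 CPM in clone 2, and 75 and 83.3 CPM in the parental line. The parental line lay between the clones, which did not overlap. SPON1 differed by 8.76 (SE 0.23), with an adjusted p of 1.06e-297 in the fit of 4 libraries and 0.00047 in the fit of all 6. SDK1, an immunoglobulin-superfamily adhesion molecule, had 0.335 and 0.240 CPM in clone 1 and 10.7 and 9.93 CPM in clone 2, with the parental line at 3.39 and 5.28 CPM. Its difference was 5.15 (SE 0.27, adjusted p 0.00632 with all 6 libraries). NCAM2, a neural cell adhesion molecule, behaved otherwise: it had 0.112 and 0.171 CPM in clone 1, 5.01 and 4.38 CPM in clone 2 and only 0.0336 and 0.0803 CPM in the parental line. For NCAM2 clone 2 was thus the line that stood apart, with a difference of 5.05 (SE 0.36, adjusted p 0.00638 with all 6 libraries). COL2A1, the fibrillar collagen of cartilage, was abundant everywhere, at 132 and 138 CPM in clone 1, 391 and 325 CPM in clone 2 and 128 and 182 CPM in the parental line. COL2A1 differed by 1.41 (SE 0.15), and its call was lost with all 6 libraries (adjusted p 0.0575).

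GSTP1 encodes a glutathione S-transferase that conjugates electrophiles and drugs to glutathione, and its CpG-rich promoter is a known site of DNA methylation in several cancers. It stood at 10.7 and 7.06 CPM in clone 1, against 183 and 172 CPM in clone 2 and 290 and 210 CPM in the parental line. Clone 2 and the parental line were within 2-fold of each other and clone 1 stood alone, with log2 clone ratios of 4.08 in DMSO and 4.59 in E2. GSTP1 differed by 4.34 (SE 0.16), and its adjusted p was 7.76e-164 in the fit of 4 libraries and 0.00305 in that of 6. WDR76, a WD-repeat protein, showed the same arrangement, with 2.68 and 2.71 CPM in clone 1, 26.2 and 23.4 CPM in clone 2 and 18.0 and 11.7 CPM in the parental line. TMEM59L did too, at 0.892 and 0.617 CPM in clone 1, 5.22 and 4.07 CPM in clone 2 and 6.78 and 5.52 CPM in the parental line. ARMCX6, an X-linked armadillo-repeat gene, had 4 counts in DMSO and 1 in E2 in clone 1, against 56.3 and 54.5 CPM in clone 2 and 11.9 and 6.88 CPM in the parental line. Summed over treatments its clone 2 level was 721 times that of clone 1, with a 95% exact interval for counting error of 309 to 2221. ARMCX6 had an adjusted p of 0.00225 with all 6 libraries. SAMD11 responded to E2 in every line and kept a gap between the clones: it went from 1.14 to 5.14 CPM in clone 1, from 6.11 to 27.5 CPM in clone 2 and, in the parental line, from 2.82 to 12.3 CPM. Its clone ratios were 2.35 in DMSO and 2.40 in E2.

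Genes lower in clone 2 covered enzymes, receptors and matrix proteins. B3GALNT1, the glycosyltransferase that makes globoside, had 18.8 and 19.1 CPM in clone 1, 0.546 and 0.548 CPM in clone 2 and 9.91 and 5.70 CPM in the parental line. It differed by -5.10 (SE 0.23), with an adjusted p of 4.23e-108 in the fit of 4 libraries and 0.00612 in that of 6. DNAJA4, a co-chaperone of HSP70, had 11 and 15.7 CPM in clone 1 and 0.580 and 0.342 CPM in clone 2, with the parental line at 5.24 and 9.59 CPM. MARK1, a kinase of microtubule-associated proteins, had 4.96 and 5.79 CPM in clone 1 and 0.273 and 0.171 CPM in clone 2, with the parental line at 1.24 and 0.937 CPM. CHRM3, the M3 muscarinic acetylcholine receptor, had 4.43 and 4.94 CPM in clone 1 and 0.273 and 0.171 CPM in clone 2, with the parental line at 2.52 and 2.68 CPM. In B3GALNT1, DNAJA4 and CHRM3 the parental level lay between the clones and nearer to clone 1 on the log2 scale in each treatment. EFEMP1, which encodes the matrix protein fibulin-3, had 6.50 and 4.49 CPM in clone 1 and 0.512 and 0.240 CPM in clone 2. HEPHL1, a copper-dependent ferroxidase, was the exception in level: clone 1 had 5.02 and 3.32 CPM, while clone 2 (0.102 and 0.342 CPM) and the parental line (0.369 and 0.321 CPM) were all low. LDOC1, an X-linked gene derived from a retrotransposon, had 25.6 and 18.8 CPM in clone 1, 1.60 and 0.924 CPM in clone 2 and 26.5 and 22.7 CPM in the parental line. LDOC1 differed by -4.13 (SE 0.19), with an adjusted p of 0.00306 with all 6 libraries. The other genes of this group were ZNF619 (-4.46), MSC-AS1 (-4.18), FAM110B (-3.58) and BEX5 (-3.56), each with an adjusted p of at most 0.012 with all 6 libraries. MSC-AS1 overlaps MSC and TRPA1 on the other strand, and whether strand was used in counting is not given in the sources used here.

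**Figure D2:**
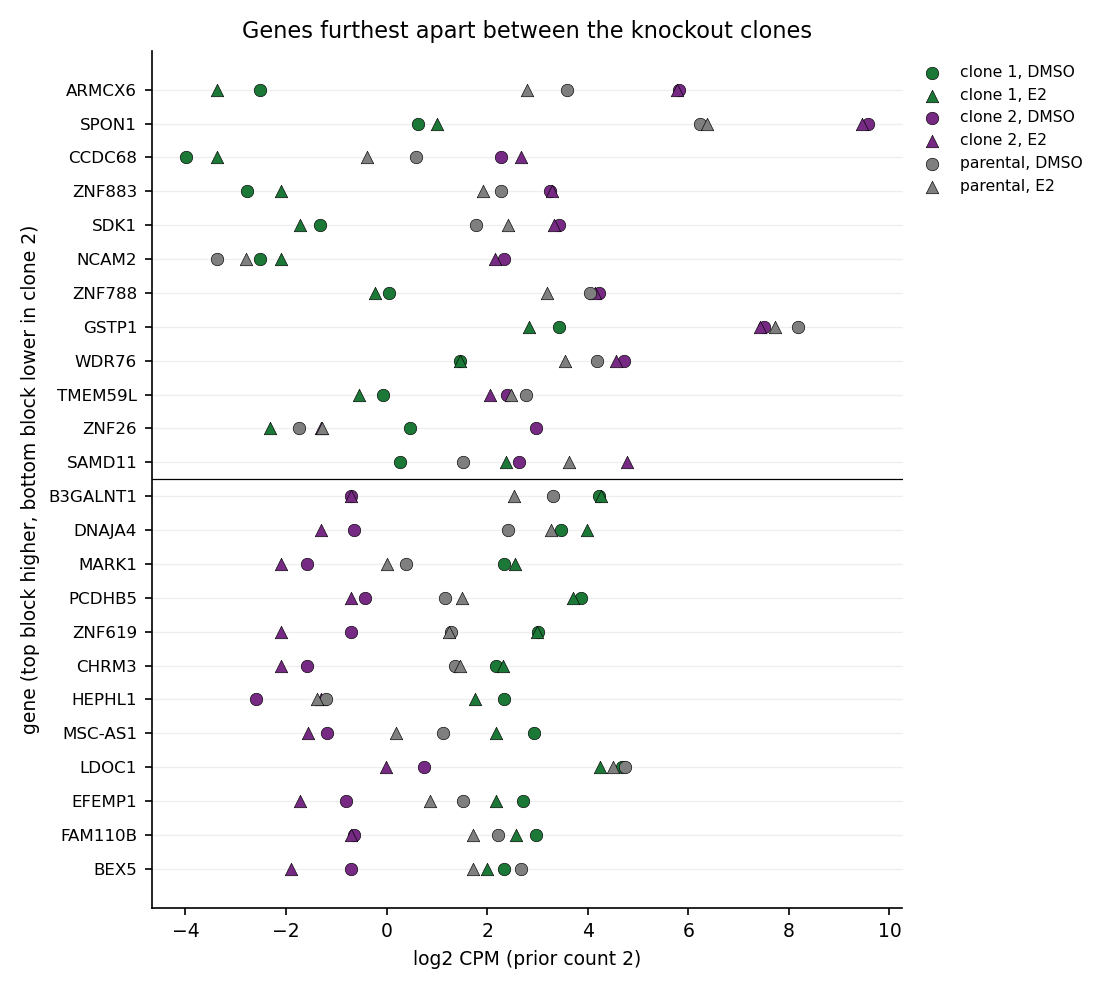
Log2 CPM of the 24 genes with the largest clone difference among those that differ in both treatments and average at least 2 CPM, in each of the 6 libraries (circles DMSO, triangles E2). The circle and triangle of a clone lie close together for most genes, and the parental points fall between the clones for ARMCX6, SPON1 and B3GALNT1, beside clone 2 for GSTP1 and beside clone 1 for LDOC1.

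GSTP1 and LDOC1 are mirror images, the first low only in clone 1 and the second low only in clone 2, so their promoters are shown. Both sequences are RefSeq windows from 250 bases before to 50 bases after the gene start on GRCh38.p14, and capitals mark each CG. GSTP1 lies at chr11:67583562-67583861 on the plus strand and LDOC1 at chrX:141177080-141177379 on the minus strand.

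GSTP1: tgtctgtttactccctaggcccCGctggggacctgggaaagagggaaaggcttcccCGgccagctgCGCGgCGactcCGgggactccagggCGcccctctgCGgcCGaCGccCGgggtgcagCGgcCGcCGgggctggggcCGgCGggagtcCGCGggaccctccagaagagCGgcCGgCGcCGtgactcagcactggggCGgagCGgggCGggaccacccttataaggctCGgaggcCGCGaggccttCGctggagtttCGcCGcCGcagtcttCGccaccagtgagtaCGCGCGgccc

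LDOC1: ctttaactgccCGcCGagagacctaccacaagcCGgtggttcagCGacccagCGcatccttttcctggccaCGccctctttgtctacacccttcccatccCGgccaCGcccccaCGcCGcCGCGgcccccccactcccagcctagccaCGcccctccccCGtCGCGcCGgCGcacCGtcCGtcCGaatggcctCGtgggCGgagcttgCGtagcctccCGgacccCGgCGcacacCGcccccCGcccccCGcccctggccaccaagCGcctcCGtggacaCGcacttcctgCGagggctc

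The GSTP1 window held 36 CG and the LDOC1 window 34, above the median of 26 over the 11558 tested genes that had a window. Their ratios of observed to expected CG were 0.879 and 0.971. Dense CG was not typical of the genes that differ in both treatments, however. Of the 381, 262 had a window, and 49.6% of these had a ratio of at least 0.65, against 77.1% of all tested genes. The share was 61.1% among genes higher and 43.6% among genes lower in clone 2. The share also moved with level, at 48.5% of the tested genes averaging under 2 CPM. Among genes averaging at least 2 CPM it was 53.8% of those that differ in both treatments and 81.6% of all. The letters TATAAA, searched on both strands, stood in 13.7% of the windows of those 262 genes and in 5.73% of all. CG and CGCT, treated below, were the other motifs searched.

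A total of 6 genes were at or near silence in 1 clone, with at most 3 counts in each of its libraries, while the other clone had at least 2 CPM in each. CCDC68, which encodes a centriole protein, had 0 counts in DMSO and 1 in E2 in clone 1, against 141 and 185 counts in clone 2 and 43 and 26 counts in the parental line. In DMSO its level in clone 2 was at least 57.5-fold higher than the floor of 3 counts in clone 1. The other 5 genes were nearly silent in clone 2. LSAMP, a GPI-anchored adhesion protein, had 83 and 123 counts in clone 1 against 3 and 1 in clone 2, and the parental line had 151 and 258. SVEP1, a large matrix protein, had 108 and 101 counts in clone 1, 2 and 1 in clone 2 and only 9 and 11 in the parental line. SOX3, an X-linked SRY-box transcription factor, had 120 and 80 counts in clone 1 and 1 in each library of clone 2, with 34 and 25 in the parental line. KCNK2, the potassium channel TREK-1, had 98 and 66 counts in clone 1 and 3 and 1 in clone 2. FGF13, an intracellular member of the fibroblast growth factor family, had 101 and 61 counts in clone 1 and 3 and 1 in clone 2. Summed over treatments, clone 1 exceeded clone 2 by 46.3 times for LSAMP (95% exact interval 17.8 to 172), 62.7 times for SVEP1 (21.2 to 306) and 89.98 times for SOX3 (24.6 to 748). The ratio was 36.9 times for KCNK2 (14.1 to 137) and 36.4 times for FGF13 (14.0 to 135). These intervals cover counting error only. All 6 genes had an adjusted p between 0.00633 and 0.012 by edgeR with all 6 libraries. The genes were picked for this gap in the same counts, so neither the intervals nor these p-values are a separate check. No gene had 0 counts in both libraries of 1 clone and at least 2 CPM in the other, and 16 did with a limit of 10 counts.

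The clustered protocadherins were the gene family with the highest share of members that differ in both treatments among the lists with at least 10 tested genes. These genes encode cadherin-like surface proteins by which neurons tell themselves from their neighbours, and they stand in tandem alpha, beta and gamma clusters. In the alpha and gamma clusters a variable exon with its own promoter is joined to shared constant exons, and each cell uses only some of the promoters. The count table lists 57 such genes. Of the 39 tested, 15 (38.5%, beside 2.56% of all tested genes) differed in both treatments. A total of 14 were higher and 1, PCDHB5, was lower in clone 2. The split by cluster was 7 higher and 1 lower of 17 beta genes, 7 higher and 0 lower of 21 gamma genes, and 0 of the 1 alpha gene tested. By adjusted p alone 20 were higher and 2 lower, and the median difference of the 39 was 0.68, against 0.01 over all tested genes. With all 6 libraries in the fit the count fell to 4 higher and 1 lower, and it was 7 and 1 by DESeq2 on the 4 libraries. With the trends with GC and length removed it stayed at 14 and 1. Gamma isoforms share constant exons, so how reads were divided among them is uncertain.

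PCDHB5 and other members of the clusters differed in opposite directions. Of the genes described here, PCDHGB1, PCDHB16, PCDHB2, PCDHGA10 and PCDHGB4 were picked after their values were seen. PCDHB5 had 14.4 and 13 CPM in clone 1, 0.682 and 0.548 CPM in clone 2 and 2.18 and 2.76 CPM in the parental line. The clones lay on either side of the parental line and did not overlap, with a difference of -4.46 (SE 0.24, adjusted p 0.00576 with all 6 libraries). PCDHGA4 had 6.22 and 5.04 CPM in clone 1, 31.1 and 27.8 CPM in clone 2 and 3.66 and 4.10 CPM in the parental line, a difference of 2.40 (SE 0.14, adjusted p 0.00633 with all 6 libraries). PCDHGB1 had 5.83 and 5.48 CPM in clone 1, 19.3 and 16.5 CPM in clone 2 and 2.22 CPM in each parental library. PCDHB16 had 8.56 and 6.37 CPM in clone 1, 19.9 and 16 CPM in clone 2 and 3.02 and 2.52 CPM in the parental line. In these last 3 genes both clones stood above the parental line and clone 2 was the highest. PCDHGA3 and PCDHB7, named by rule, were also higher in clone 2, by 2.15 and 2.01. Both lost their calls with all 6 libraries (adjusted p 0.145 and 0.168) and by DESeq2 (0.118 and 0.183). PCDHB2 had 6.78 and 3.77 CPM in clone 1 and 16 and 12.5 CPM in clone 2, with the parental line level with clone 1 at 6.41 and 5.04 CPM. Several well expressed members did not differ: PCDHGA10 had 21.7 and 20.6 CPM in clone 1 and 20.9 and 20.3 CPM in clone 2 (adjusted p 0.896), and PCDHGB4 had 33.9 and 30.8 CPM against 37.7 and 31.7 CPM (adjusted p 0.628). Summed over the 17 tested beta genes, the level was 116 and 97.0 CPM in clone 1, 146 and 114 CPM in clone 2 and 46.0 and 46.2 CPM in the parental line. Both clones exceeded the parental line in each treatment in 10 of the 17 beta and 13 of the 21 gamma genes.

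**Figure D3:**
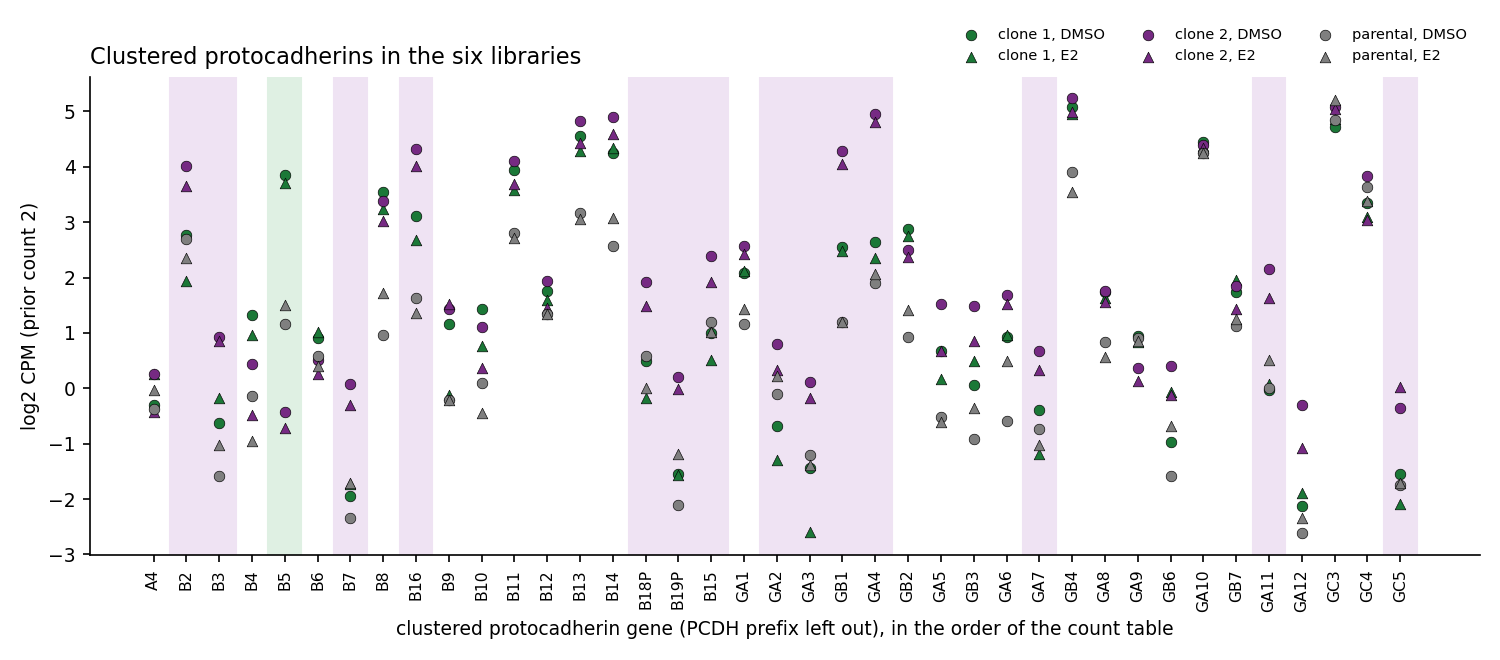
Log2 CPM of the 39 tested clustered protocadherin genes in the order of the count table, in the 6 libraries (circles DMSO, triangles E2). Purple bands mark the 14 genes higher and the green band marks PCDHB5, lower in clone 2 in both treatments, and for PCDHGA10, which has no band, the clone points lie on top of each other.

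Protocadherin promoters carry a conserved element with the core CGCT, and the windows of the opposed neighbours are set side by side, with CGCT (AGCG on the other strand) in capitals. They are RefSeq windows on GRCh38.p14, all on the plus strand: PCDHB5 at chr5:141134956-141135255, PCDHB16 at chr5:141182137-141182436, PCDHGB1 at chr5:141349849-141350148 and PCDHGA4 at chr5:141354771-141355070.

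PCDHB5: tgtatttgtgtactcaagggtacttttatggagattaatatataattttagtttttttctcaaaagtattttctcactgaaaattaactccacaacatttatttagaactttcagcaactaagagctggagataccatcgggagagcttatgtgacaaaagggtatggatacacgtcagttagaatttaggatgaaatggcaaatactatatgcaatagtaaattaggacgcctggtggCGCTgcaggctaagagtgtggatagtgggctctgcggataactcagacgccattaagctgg

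PCDHB16: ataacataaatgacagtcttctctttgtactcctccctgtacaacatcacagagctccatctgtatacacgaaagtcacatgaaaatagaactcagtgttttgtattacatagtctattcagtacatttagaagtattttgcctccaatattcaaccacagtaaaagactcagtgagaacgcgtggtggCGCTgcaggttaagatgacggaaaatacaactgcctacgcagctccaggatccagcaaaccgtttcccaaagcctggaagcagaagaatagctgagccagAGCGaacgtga

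PCDHGB1: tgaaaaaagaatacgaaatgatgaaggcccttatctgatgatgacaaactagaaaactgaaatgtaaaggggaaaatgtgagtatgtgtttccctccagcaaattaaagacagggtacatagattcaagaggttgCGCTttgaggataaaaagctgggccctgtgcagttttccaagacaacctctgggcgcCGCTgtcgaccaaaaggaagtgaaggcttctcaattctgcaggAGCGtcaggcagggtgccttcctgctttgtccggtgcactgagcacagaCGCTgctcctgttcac

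PCDHGA4: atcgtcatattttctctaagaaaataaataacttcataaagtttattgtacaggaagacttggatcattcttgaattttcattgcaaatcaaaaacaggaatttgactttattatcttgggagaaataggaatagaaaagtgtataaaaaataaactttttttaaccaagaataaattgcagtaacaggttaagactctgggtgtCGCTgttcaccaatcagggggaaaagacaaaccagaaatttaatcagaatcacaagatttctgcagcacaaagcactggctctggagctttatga

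The core CGCT stood once in PCDHB5, 2 times in PCDHB16, 4 times in PCDHGB1 and once in PCDHGA4. PCDHB5 and PCDHB16 differ in direction between the clones, and each has a copy after the letters tggtgg. Among the 33 tested protocadherins with a window all 33 held CGCT, against 69.4% of 27305 RefSeq promoters of this length. It was present in the 11 windows of genes higher in clone 2 and in the 15 windows of genes with no adjusted p below 0.05 alike. These windows held few CG, with 6 in PCDHB5, 9 in PCDHB16, 8 in PCDHGB1 and 2 in PCDHGA4. Each CGCT holds a CG, so the counts of the letters overlap.

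C2H2 zinc finger genes, most of which encode DNA-binding repressors, made up the largest list, with 537 tested. Only 15 (2.79%) differed in both treatments, 10 higher and 5 lower in clone 2, a share near that of all genes. Those that did were far apart. ZNF883 had 3 and 5 counts in clone 1 and 9.42 and 9.69 CPM in clone 2, with the parental line at 4.77 and 3.70 CPM. ZNF788 had 0.976 and 0.788 CPM in clone 1, 18.7 and 17.6 CPM in clone 2 and 16.4 and 9.03 CPM in the parental line. ZNF619 ran the other way, with 8.03 and 7.85 CPM in clone 1, 0.546 and 0.171 CPM in clone 2 and 2.38 and 2.30 CPM in the parental line. ZNF322 had 79.2 and 49.8 CPM in clone 1 against 8.94 and 8.59 CPM in clone 2, with the parental line at 10.3 and 22.8 CPM. ZNF322 differed by -2.84 (SE 0.14), and its call was lost with all 6 libraries (adjusted p 0.0528). ZNF788 overlaps ZNF20 on the other strand. ZNF26 changed with treatment inside each clone, from 1.31 to 0.137 CPM in clone 1 and from 7.81 to 0.342 CPM in clone 2. Its adjusted p was 0.397 with all 6 libraries and its sign turned to -0.12 without the clone 2 DMSO library.

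X-linked genes held a higher share of members than the autosomes together, and most of these members were lower in clone 2, as were most autosomal members. Of 508 tested X-linked genes 29 (5.71%) differed in both treatments, against 346 of 14085 autosomal genes (2.46%), a difference that was not tested. Chromosome 8 had a like share, 5.33% of 488 genes with 4 higher and 22 lower, and chromosome 5, which holds the protocadherins, had 4.44% with 16 higher and 14 lower. Of the 29 X-linked genes, 6 were higher and 23 lower in clone 2, beside 129 higher and 217 lower among the autosomal genes. In 17 of the 23 the parental level lay nearer to clone 1 in both treatments, and in 11 clone 2 was the only clone at least 2-fold from it. Among all 242 genes lower in clone 2 the corresponding counts were 103 and 59. The X-linked share was not counted in the other fits. The genes described here were picked after their values were seen. CAPN6, a calpain-family protein, had 21.1 and 16.2 CPM in clone 1, 4.81 and 4.07 CPM in clone 2 and 14.1 and 11 CPM in the parental line. CHRDL1, a secreted BMP antagonist, had 10.5 and 7.37 CPM in clone 1, 1.26 and 0.890 CPM in clone 2 and 8.36 and 5.57 CPM in the parental line. GPC3, a heparan sulfate proteoglycan of the cell surface, had 3.26 and 2.74 CPM in clone 1, 0.239 and 0.205 CPM in clone 2 and 2.32 and 1.74 CPM in the parental line. The median over all 508 X-linked genes was -0.07, beside 0.01 over autosomal genes. In the other direction, L1CAM, a neural adhesion molecule that is also known from aggressive endometrial tumours, had 1.03 and 0.446 CPM in clone 1, 3.17 and 2.33 CPM in clone 2 and 2.45 and 2.41 CPM in the parental line.

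Adhesion, matrix and channel genes outside the protocadherins supplied further members. Of 10 tested classical and atypical cadherins 3 (30%, beside 1.63% of all genes) were lower in clone 2 in both treatments: CDH12 (29.4 and 23.5 CPM in clone 1, 5.77 and 4.04 CPM in clone 2), CDH7 and CDH18. CDH12 differed by -2.43 (SE 0.15, adjusted p 0.00632 with all 6 libraries). CDH18 kept its call there (adjusted p 0.0353), and CDH7 lost it (0.118), as by DESeq2 (0.0652). Another 3 cadherins were higher in clone 2 by adjusted p alone. Among 30 collagens 3 differed (10%, beside 2.56% of all genes): COL2A1 was higher and COL9A1 and COL25A1 were lower. COL9A1 kept its call with all 6 libraries (adjusted p 0.0104) and COL25A1 lost it (0.293). COL9A1 had 6.80 and 3.84 CPM in clone 1, 0.853 and 0.445 CPM in clone 2 and 0.269 and 0.214 CPM in the parental line. The Eph receptors EPHA4 and EPHA3, which guide cell contact and migration, were the 2 of 20 tested Eph and ephrin genes (10%) that differed, both lower in clone 2. EPHA4 kept its call with all 6 libraries (adjusted p 0.0142) and EPHA3 lost it (0.0942). EPHA4 had 1.98 and 2.12 CPM in clone 1 and 0.0341 and 0.0685 CPM in clone 2. Among 60 channel subunits 8 (13.3%) differed, 3 higher and 5 lower, with KCNK2 alone kept with all 6 libraries. The calcium channel gene CACNA1I rose with E2 in each line and was higher in clone 2 than in clone 1 in both treatments, going from 1.14 to 19.1 CPM in clone 1, from 2.83 to 48.5 CPM in clone 2 and, in the parental line, from 0.403 to 29 CPM. Solute carriers, with 9 of 248 (3.63%), were near the background.

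The 4 lists described next, of growth factors, their receptors and antigen presentation, held 1 to 3 genes each that differ in both treatments. Among fibroblast growth factors and receptors 2 of 11 (18.2%, beside 2.56% of all genes) were lower in clone 2, FGF12 and FGF13, and both calls were kept with all 6 libraries. FGF12 had 46.3 and 41.0 CPM in clone 1, 17.4 and 13.9 CPM in clone 2 and 12.7 and 11.2 CPM in the parental line, a difference of -1.48 (SE 0.13, adjusted p 0.012 with all 6 libraries). TGFB2, a TGF-beta ligand, had 43.2 and 26.6 CPM in clone 1, 20.3 and 8.46 CPM in clone 2 and 13.6 and 9.24 CPM in the parental line. It was 1 of 3 lower genes, with BMP5 and INHBE, among 37 of the TGF-beta and BMP pathway (8.11%). TGFB2 (adjusted p 0.0582) and BMP5 (0.234) lost their calls with all 6 libraries and INHBE (0.0358) kept its own. IGF2R, the receptor that clears IGF2, had 68.0 and 97.9 CPM in clone 1 and 256 and 269 CPM in clone 2. The parental line reached 123 CPM in DMSO and 248 CPM in E2, close to clone 2 only in E2. IGF2R differed by 1.69 (SE 0.15, adjusted p 0.0488 with all 6 libraries), and was the 1 of 13 genes of its axis (7.69%) to differ in both treatments. CD74, the invariant chain of MHC class II, had 61.3 and 46.8 CPM in clone 1, 16 and 12.5 CPM in clone 2 and 41.7 and 30.3 CPM in the parental line, a difference of -1.91 (SE 0.14, adjusted p 0.00633 with all 6 libraries). CD74 and HLA-B were the 2 of 8 tested antigen presentation genes (25%) that differed in both treatments, and HLA-B lost its call with all 6 libraries (adjusted p 0.228) and by DESeq2 (0.303).

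In some lists most of the called genes lay in 1 direction, and few of them were 2-fold apart in both treatments. Of 42 genes of the unfolded protein and integrated stress response, 10 were lower and 0 higher in clone 2 by adjusted p in the fit of 4 libraries, beside 8.08% of all genes that were lower. NUPR1 was the 1 that differed in both treatments. The 10 included ASNS (-0.73), ATF3 (-0.70) and CHAC1 (-0.62), and with all 6 libraries only NUPR1 remained. NUPR1, a stress-induced chromatin protein, had 58.1 and 48.6 CPM in clone 1, 14.1 and 14.3 CPM in clone 2 and 22.5 and 16.4 CPM in the parental line, a difference of -1.90 (SE 0.14). Of 26 cilium assembly genes, 9 were higher and 0 lower, beside 10.2% of all genes that were higher, and DESeq2 on the same 4 libraries gave 4 and 0. With all 6 libraries edgeR called 0 of the 26 and DESeq2 2, with 8 higher and 0 lower at an unadjusted p below 0.05, beside 12.1% of all genes. PIFO had 1.90 and 1.03 CPM in clone 1 and 5.94 and 3.49 CPM in clone 2, and RSPH1 had 0.725 and 0.754 CPM against 2.63 and 2.16 CPM. These were the 2 cilium genes that differed in both treatments. Notch pathway genes gave 8 higher and 2 lower of 23, with HEYL (1.00) and HES4 (0.75) the largest, and 0 differed in both treatments. With all 6 libraries edgeR called 0 and DESeq2 1, with 5 higher and 1 lower at an unadjusted p below 0.05. Cytosolic ribosomal protein genes gave 2 higher and 18 lower of 83, with 1 lower in both treatments. With all 6 libraries edgeR called 0 and DESeq2 3, with 0 higher and 8 lower at an unadjusted p below 0.05. Their summed level was 71205 and 64445 CPM in clone 1, 52881 and 58353 CPM in clone 2 and 105351 and 58892 CPM in the parental line, so the parental pair spread more widely than the clones.

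The estrogen receptor itself did not pass the test between the clones, while a number of estrogen-induced genes did. ESR1, the estrogen receptor, had 276 and 203 CPM in clone 1 and 246 and 150 CPM in clone 2, with an adjusted p of 0.165. GREB1, an estrogen-induced gene, went from 8.25 to 59.9 CPM with E2 in clone 1 and from 9.83 to 66.3 CPM in clone 2, with an adjusted p of 0.334 for the clones. For PGR, the progesterone receptor, the DMSO libraries had 7.31 CPM (clone 1) and 2.66 CPM (clone 2), and the E2 libraries 71.5 and 62.8 CPM. The PGR clone ratio was therefore -1.44 in DMSO and -0.19 in E2. PGR had an adjusted p of 2.67e-04 in the fit of 4 libraries and 0.416 in that of 6. Of 35 tested estrogen-induced genes 8 were higher and 8 lower by adjusted p (45.7%), beside 10.2% higher and 8.08% lower of all genes. In the fit of all 6 libraries edgeR called 0 of the 35 and DESeq2 1, with 7 higher and 5 lower at an unadjusted p below 0.05. The potassium channel gene KCNK6 was the 1 that differed in both treatments, higher in clone 2, and its call was lost with all 6 libraries (adjusted p 0.26) and by DESeq2 (0.0501). Of the ETV4 paralogs, ETV5 had 51.6 and 50.5 CPM in clone 1 and 43.4 and 45.0 CPM in clone 2 (adjusted p 0.296). ETV1 had 9.90 and 8.23 CPM in clone 1, 4.74 and 3.18 CPM in clone 2 and 7.59 and 4.95 CPM in the parental line. ETV1 differed by -1.20 (SE 0.19, adjusted p 9.14e-09), and its call was lost with all 6 libraries (adjusted p 0.0699).

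Several lists had no member that differs in both treatments, which in lists of this size is near the 2.56% of all genes. Leaving out the marker lists, 17 lists with at least 10 tested genes were at 0, among them HOX genes (0 of 29), keratins (0 of 12), claudins (0 of 12), integrin subunits (0 of 22), Wnt ligands and Frizzled receptors (0 of 20), ABC transporters (0 of 35), proliferation genes (0 of 54), p53 target genes (0 of 29), genes of cholesterol and fatty acid synthesis (0 of 38) and of glycolysis and hypoxia (0 of 39). DNA methylation and silencing genes also had 0 of 33. By adjusted p alone that list gave 6 higher and 0 lower, the largest FAM208A at 0.84. That is 18.2%, all higher, beside 10.2% of all genes that were higher and 8.08% that were lower (18.3% in either direction). Proliferation genes gave 4 higher and 1 lower (9.26%), HOX genes 5 and 1 (20.7%), p53 targets 2 and 2 (13.8%), keratins 1 and 2 (25%) and claudins 1 and 0 (8.33%). In the fit of all 6 libraries edgeR called 0 in each of these 6 lists, and DESeq2 0 in each except the keratins, with 2 lower. At an unadjusted p below 0.05 that edgeR fit gave 3 higher and 0 lower silencing genes, 5 and 0 proliferation genes, 2 and 1 HOX genes, 0 and 2 p53 targets, 1 and 2 keratins and 0 claudins.

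**Figure D4:**
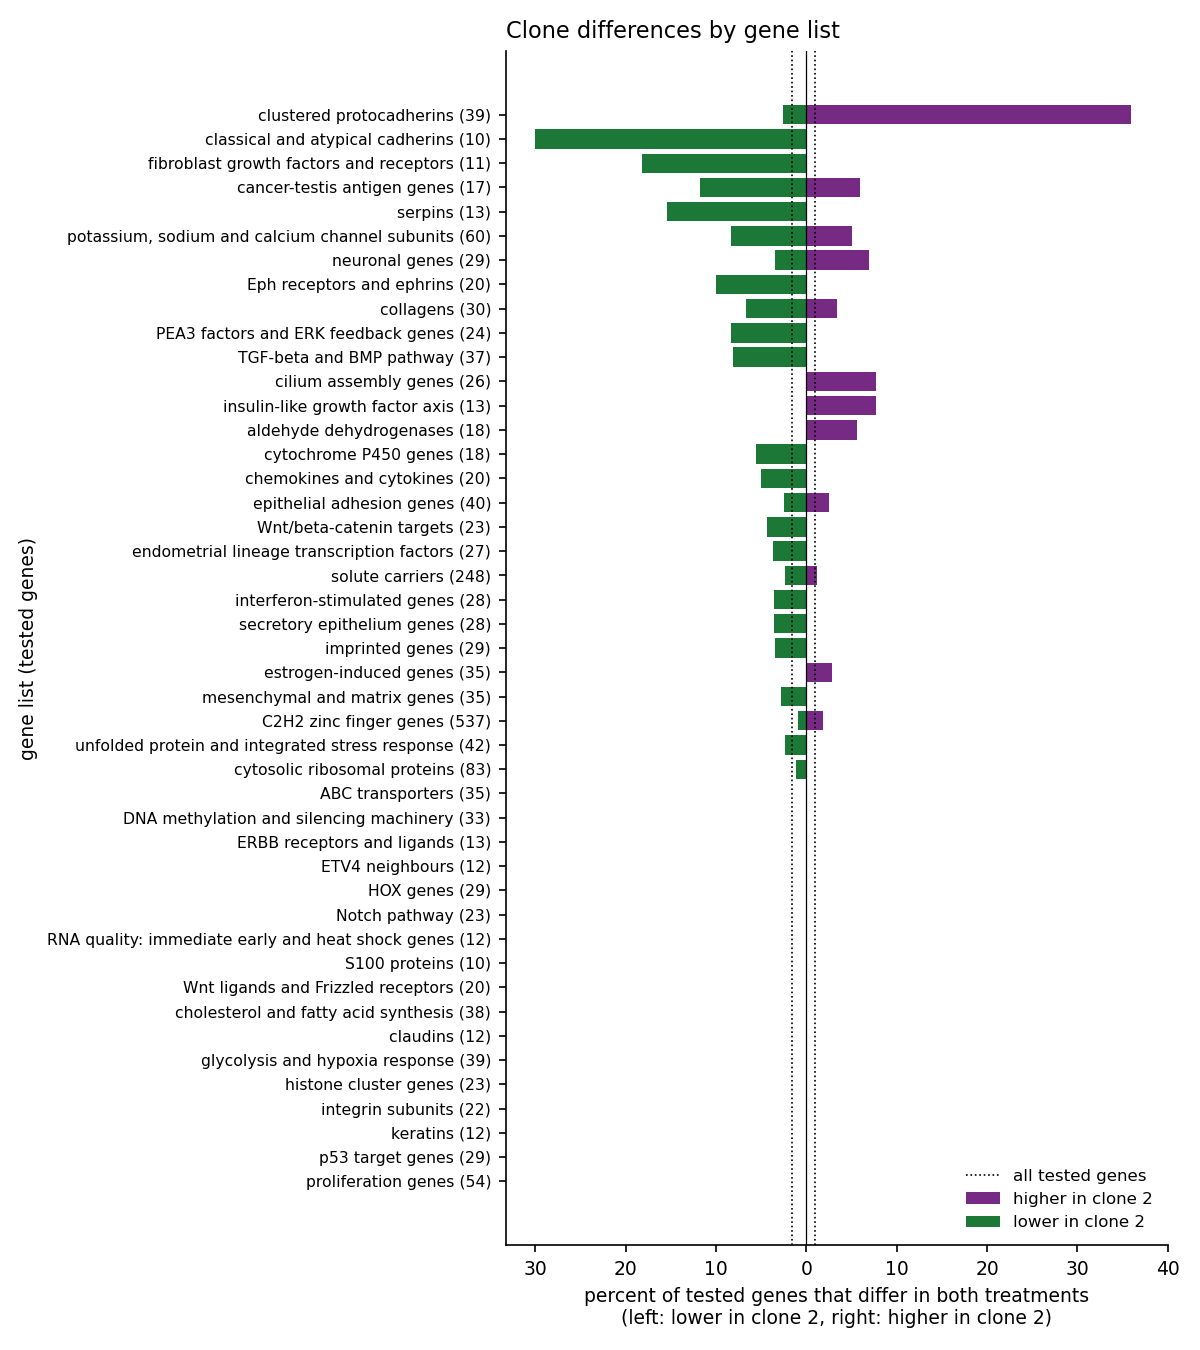
Share of the tested genes of each list that differ in both treatments, lower in clone 2 to the left and higher to the right, with the number tested in brackets and dotted lines at the shares over all tested genes (1.63% and 0.934%). The clustered protocadherins reach 38.5% in all, mostly to the right, the cadherins 30% to the left, and 17 lists besides the marker lists are at 0.

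The parental line was a point of reference for each difference. Of the 381 genes, 155 had a parental level nearer to clone 1 in both treatments, 139 nearer to clone 2, and 87 were mixed. Clone 1 alone was at least 2-fold from the parental level in both treatments in 65 genes, 45 of them higher and 20 lower than the parental line. Clone 2 alone was in 89 genes, 30 higher and 59 lower. The clones stood on opposite sides of the parental line, each at least 2-fold away, in 18 genes, among them SPON1, ARMCX6 and SOX3. They stood on the same side in 13 genes, and the remaining 196 met none of these. Of the 381 genes, 186 averaged at least 2 CPM over the knockout libraries. Among these the parental level was nearer to clone 1 in 73, nearer to clone 2 in 76 and mixed in 37. With a single parental library in each treatment, these positions have no replicate check. The following genes were picked after their values were seen. GJA1, the gap junction protein connexin 43, had 19.6 and 18.4 CPM in clone 1, 54.3 and 50.1 CPM in clone 2 and 885 and 693 CPM in the parental line, so both clones were low and unequal. ALDH3A1, an aldehyde dehydrogenase, had the same order, with 3.46 and 3.19 CPM in clone 1, 7.23 and 6.61 CPM in clone 2 and 101 and 91.4 CPM in the parental line. PLXDC2, a plexin-domain membrane protein, had 1.87 and 5.38 CPM in clone 1, 0.102 and 0.137 CPM in clone 2 and 32.8 and 48.5 CPM in the parental line. WDR72 was the reverse, with 18.0 and 12.8 CPM in clone 1, 2.01 and 1.85 CPM in clone 2 and only 0.134 and 0.161 CPM in the parental line.

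**Figure D5:**
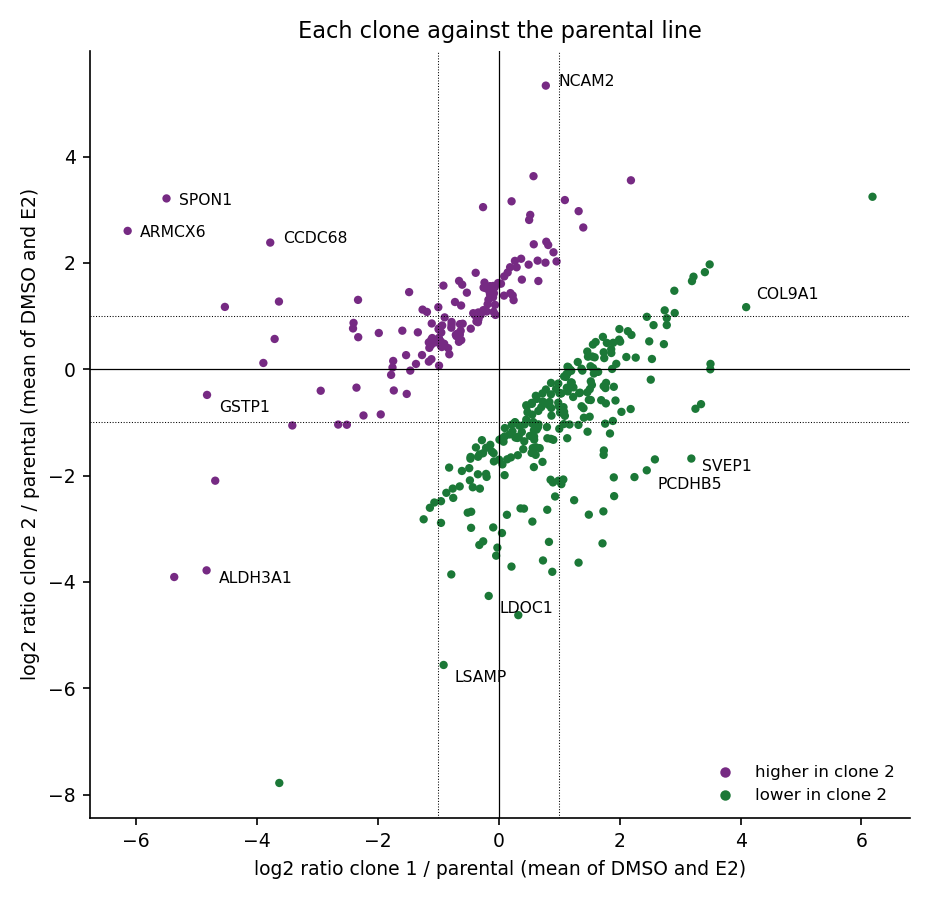
Mean log2 ratio of clone 1 to the parental line (horizontal axis) and of clone 2 to the parental line (vertical axis) over DMSO and E2 for the 381 genes, with dotted lines at 2-fold. GSTP1 lies along the horizontal axis (clone 1 apart), NCAM2 and LDOC1 along the vertical axis (clone 2 apart), SPON1 and ARMCX6 in the quadrant where the clones oppose each other, and ALDH3A1 where both are low.

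Clone differences along the genome were read as medians over neighbouring genes, and the outcome depended on window size. In RefSeq gene order, medians over windows of 50 tested neighbours ran from -0.29 to 0.35, and no window passed 0.3 in size in both treatments, a limit chosen after the values were seen. Of the windows of 25 genes 90 passed that limit, and joined where they overlapped they made 8 stretches. Over a whole stretch the median could fall below the limit. One, from ZMAT2 to HDAC3 on chromosome 5, includes the protocadherin clusters and had 15 genes that differ in both treatments. Its 43 genes had a median of 0.42, with 0.50 in DMSO and 0.18 in E2. The other 7 stretches had medians between -0.24 and 0.37, with between -0.14 and 0.32 in E2. Each held at most 4 genes that differ in both treatments. Chromosome medians ran from -0.07 on chromosome 8 to 0.13 on chromosome 22. Chromosome medians were not compared with base composition. Across 14464 single genes with a known GC content, the clone ratio had a Spearman correlation with it of 0.319 in DMSO and 0.249 in E2. The fifth of genes with the lowest GC had a median ratio of -0.17 in DMSO and -0.07 in E2, and that with the highest 0.22 and 0.12. The part of GC content in the small differences was not tested. Removing the trends with GC and length, an alternative chosen after the data were seen, left 378 genes (2.54%) that differ in both treatments. Of those, 377 were among the 381. It changed the 2723 genes with an adjusted p below 0.05 to 3063 (20.6%), with the split given above.

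A few genes differed between the clones in opposite directions in DMSO and E2. Among 11035 genes averaging at least 5 CPM, the change of the clone ratio from DMSO to E2 had an SD of 0.303, and the ratio moved up by at least 2-fold in 19 genes and down in 24. With 4 libraries this interaction has no residual degrees of freedom and was not tested. The largest changes in size were in MTRNR2L2 (-5.997), ZNF84 (-5.78), MTRNR2L3 (-4.80) and ACTA1 (4.60). MTRNR2L2 has near-identical copies elsewhere, so its reads cannot be assigned with certainty. The part of read assignment in these changes was not tested. MTRNR2L2, a nuclear copy of mitochondrial sequence, had 27.1 and 344 CPM in clone 1 (DMSO, E2) and 312 and 61.9 CPM in clone 2. LSM12, an RNA-binding protein, had 23.3 and 40.2 CPM in clone 1 and 90.9 and 15.3 CPM in clone 2, with the parental line at 117 and 113 CPM. RPL39 had 69.5 and 113 CPM in clone 1 and 43.6 and 343 CPM in clone 2, with the parental line at 609 and 67.6 CPM. POTEF had 2.20 and 2.12 CPM in clone 1 and 4.37 and 27.5 CPM in clone 2. MTRNR2L2, LSM12, RPL39 and POTEF were not among the 381 genes. MTRNR2L8 was among them, with a clone ratio of -4.60 in DMSO and -1.17 in E2. So was RPS10, at -2.63 in DMSO and -1.24 in E2.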

How the data were processed

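Per the labels' protocols, stranded poly(A) libraries were made from total RNA. Per the submitters' processing notes, HISAT2, SAMtools, Subread and DESeq2 were used with hg19; their versions and roles are not given in the sources used here. The authors deposited whole-number counts per gene for 6 libraries, and a normalized signal that equals those counts divided by a size factor per library. Counts were tested in R 4.3.3 with the edgeR 4.0.16 quasi-likelihood test (treatment and clone in the model, TMM scaling, filterByExpr by clone, Benjamini-Hochberg adjustment over 14881 genes, adjusted p below 0.05). A prior count of 2 entered the log2 ratios of library pairs. The deposited normalized signal served only as an alternative scale. On simulated data with a coefficient of variation of 0.1 between samples, the clone test on 14756 genes recovered 91.9% of 2-fold and 99% of 4-fold changes, with 4 false calls. With 0.2 it recovered 38.4% and 96.0% on 14747 genes, with 6 false calls. The real libraries gave a common value of 0.0954. Every simulated gene had the same coefficient of variation and no treatment effect, so a shared spread held by design. These rates therefore do not tell how many calls in the real data are false or missed. RefSeq (GRCh38.p14) matched 98.2% of tested symbols, and was used for gene order and promoters; 11558 genes had a promoter window. Since the counts rest on hg19, no gene coordinates are given beyond those windows.

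Samples were grouped by the labelled line and treatment. Genes were named by rule: in each direction, at most 12 with the largest difference among genes that differ in both treatments and average 2 CPM or more, at most 3 from each list, genes silent in 1 clone, at most 5 with the largest treatment-dependent change, and ETV4, ETV1, ETV5, ESR1, PGR and GREB1. Not every gene that met the rule is described. Other genes were named outside it after their values were seen, among them protocadherins, X-linked genes and list members such as ASNS, HEYL and FAM208A. The members and lists were chosen with earlier results of these data known. Nothing says the libraries of a clone came from separate cultures beyond their treatment, so p-values measure only the spread between these samples. Alternatives were other scalings, filters, prior counts, folds and tests, all 6 libraries in 1 fit, and each library left out.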

Additional observations from a re-analysis of the deposited data

Results flagged for a closer look

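In 5 genes E2 moved the clones in opposite directions by at least 2-fold each, and with 1 library per clone and treatment the difference was not tested. For MTRNR2L2 the log2 change with E2 was 3.66 in clone 1 and -2.33 in clone 2, which is -5.997 for clone 2 minus clone 1, and it was 0.93 in the parental line. For MTRNR2L3 it was 2.95 in clone 1 and -1.85 in clone 2, a gap of -4.80. Both are nuclear copies of mitochondrial sequence. For ZNF84, a zinc finger gene, it was 3.51 in clone 1, -2.28 in clone 2 and 4.67 in the parental line, a gap of -5.78. For ACTA1, the skeletal muscle actin, it was -1.12 in clone 1, 3.48 in clone 2 and -1.51 in the parental line, a gap of 4.60. For VOPP1, a vesicular membrane protein, it was 1.03 in clone 1, -1.94 in clone 2 and -0.20 in the parental line, a gap of -2.97. Genes averaging at least 5 CPM over the clones, and the named genes, were searched.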

How the results depend on the processing

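The 2723 genes with an adjusted p below 0.05 became 2773 with median-ratio scaling, 2542 with no filter on low counts, 2571 with at least 10 counts in every clone library and 2321 by limma-voom. DESeq2 called 1024 (511 higher and 513 lower), a test against a 2-fold difference 165, the model without treatment 104, the fit of all 6 libraries 134 and, as an alternative chosen after seeing the data, DESeq2 on all 6 libraries 375. The 381 genes that differ in both treatments became 237 with at least 10 counts in every clone library, 231 by DESeq2, 233 by DESeq2 on all 6 libraries, 159 against a 2-fold difference, 96 without treatment and 131 in the fit of all 6. They became 998 with a 1.5-fold limit and 96 with a 4-fold limit. All of these counts have more genes lower than higher in clone 2 among those that differ in both treatments. Leaving out 1 library at a time, in the fit of all 6 with the remaining pair alone setting the fold, gave 174 to 915 genes by adjusted p and 174 to 431 by both criteria. The lone library of a clone was then assumed to vary like the other lines; the highest counts came without the clone 2 E2 library, and 359 genes passed without clone 2 DMSO. With a prior count of 10, 515 genes were 2-fold apart in DMSO and 504 in E2. Genes silent in 1 clone numbered 0 at a limit of 0 counts and 16 at 10 counts, and the highest window median was 0.73 with windows of 25 genes. Among the named genes signs turned for ZNF26, for ETV4, which was not called (0.0068 without the clone 1 DMSO library and -0.58 without clone 1 E2), and for 7 genes named for a treatment-dependent difference. Leaving out 1 library at a time gave -0.12 to 2.98 for ZNF26, -1.95 to 2.93 for MTRNR2L2, -2.76 to 3.65 for ZNF84, -1.83 to 2.13 for MTRNR2L3, -1.19 to 1.73 for LSM12 and -1.94 to 2.27 for RPL39. It gave -0.27 to 1.43 for ALPP and -3.40 to 1.48 for ACTA1. The lowest value of the first 5 came without the clone 2 DMSO library, as did the highest of ACTA1, and that of RPL39 came without clone 2 E2. The causes were not tested. Of 100 genes named by rule, 56 kept their side of the threshold with all 6 libraries and 44 no longer passed it. With treatment in the model, the clones were compared within DMSO and within E2. No further pairing was possible because each group has 1 library and line and clone are the same factor.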
